A study of Mus musculus with 19 samples.

Results

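The genes that carry the insulin signal to glucose uptake were followed in the epididymal white adipose tissue (eWAT) of mice on 4 diets. They were Insr, Irs1, Irs2, Pik3r1, Akt2, Tbc1d4, Slc2a4 and Foxo1, taken by symbol from a table of gene expression, and they make up 8 of its 24237 genes. Male C57BL6/J mice, 9–10 weeks old at the start, ate their diet for 17 weeks. The low-fat diet (LFD) gave 10% of energy as fat and the high-fat diet (HFD) 60%, and each was made with a normal (0.21% wt/wt MgO) or a low (0.03% wt/wt MgO) amount of magnesium. There were 4 NormMg-LFD-fed mice and 5 mice each in the LowMg-LFD, NormMg-HFD and LowMg-HFD groups, and each library came from the whole fat tissue of 1 mouse. Expression is given as FPKM, the fragments per kilobase of transcript, scaled to the fragments mapped in the library. This adjusts for the length of the transcript and the depth of the library. It does not adjust for a shift of many genes between groups, so some results are also given after median centring and quantile normalization.

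Insulin binds its receptor at the surface of the adipocyte, and the receptor phosphorylates the insulin receptor substrates. These recruit phosphoinositide 3-kinase, whose lipid product brings Akt to the membrane. Akt phosphorylates TBC1D4, which releases vesicles that carry the glucose transporter GLUT4 to the cell surface, and it keeps the transcription factor FOXO1 out of the nucleus. Adipose tissue is one of the few tissues in which glucose uptake through GLUT4 responds to insulin.

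Each library held 12986441 to 13027028 reads, and 86.1% to 90.4% of them were mapped. The adipocyte markers were high in every library, with Adipoq between 1072 and 2569 FPKM and Fabp4 between 6132 and 12236 FPKM. Some libraries stood apart. NormMg-LFD replicate 3 carried the messages of the exocrine pancreas, 11 of which averaged 6.92 on the log2(FPKM + 1) scale against 0.52 to 0.79 in the 18 other libraries. The study's methods speak of a LowMg-HFD library with pancreatic tissue that was set aside. In the table used here the 5 LowMg-HFD libraries lay between 0.56 and 0.78, so the methods and the columns differ in the group whose library carries pancreatic messages. Over all genes tested, the median absolute difference of NormMg-LFD replicate 3 from the group means of the other libraries, on the log2(FPKM + 1) scale, was 0.176 for NormMg-LFD and 0.166 for LowMg-LFD, beside 0.342 for NormMg-HFD and 0.25 for LowMg-HFD. By this measure 16 of the 19 libraries were nearest to a group of their own fat content, the others being NormMg-LFD replicate 4 and LowMg-HFD replicates 3 and 4. Only 11 of the 19 were nearest to their own group. Those nearer to another group were every NormMg-LFD library, LowMg-LFD replicate 4 and LowMg-HFD replicates 2, 3 and 4. Whether samples were exchanged was not tested further. LowMg-LFD replicate 4 held epididymal messages at 2.89 against 0 to 0.23 elsewhere. LowMg-HFD replicate 4 lay at -87.4 on the first principal component, whereas the other LowMg-HFD libraries lay between 7.78 and 29.9 and all 18 others between -53.5 (NormMg-LFD replicate 4) and 46.4. Some results are also given without these libraries.

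Differences between groups were fitted on log2(FPKM + 1) with limma over the 14267 genes whose mean FPKM was above 1, and a gene was called where its Benjamini-Hochberg adjusted p over all of them was under 0.05. All 8 genes passed the filter on low values. Adding 1 to each FPKM makes the change of weakly expressed genes look smaller than it is, which bears most on Irs1. In bulk tissue fewer adipocytes and less RNA per adipocyte cannot be told apart.

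All 8 genes had their lowest group mean in the NormMg-HFD-fed mice. Between NormMg-HFD and NormMg-LFD, 7 of the 8 genes fell, with Irs2 as the exception, while 9.67% of all genes tested were called lower. Without NormMg-LFD replicate 3 it was 6 of the 8, all but Irs2 and Pik3r1, against 7.84%. Without NormMg-LFD replicate 2 it was 4 of the 8, Insr, Irs1, Slc2a4 and Foxo1, the lowest count in the 19 fits that left out 1 mouse. The median of the 8 differences was -0.58 and that of all genes tested was 0.0059. Between LowMg-HFD and NormMg-HFD, 2 of the 8 genes, Slc2a4 and Insr, rose, against 2.99% of all genes called higher. The fitted value was above 0 for all 8 genes, with a median of 0.35 against 0.0012 over all genes. Between LowMg-HFD and LowMg-LFD, 1 of the 8 genes, Insr, fell, while 1.99% of all genes were called lower. These comparisons share groups with each other, so their values are set side by side and are not independent.

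**Figure D1:**
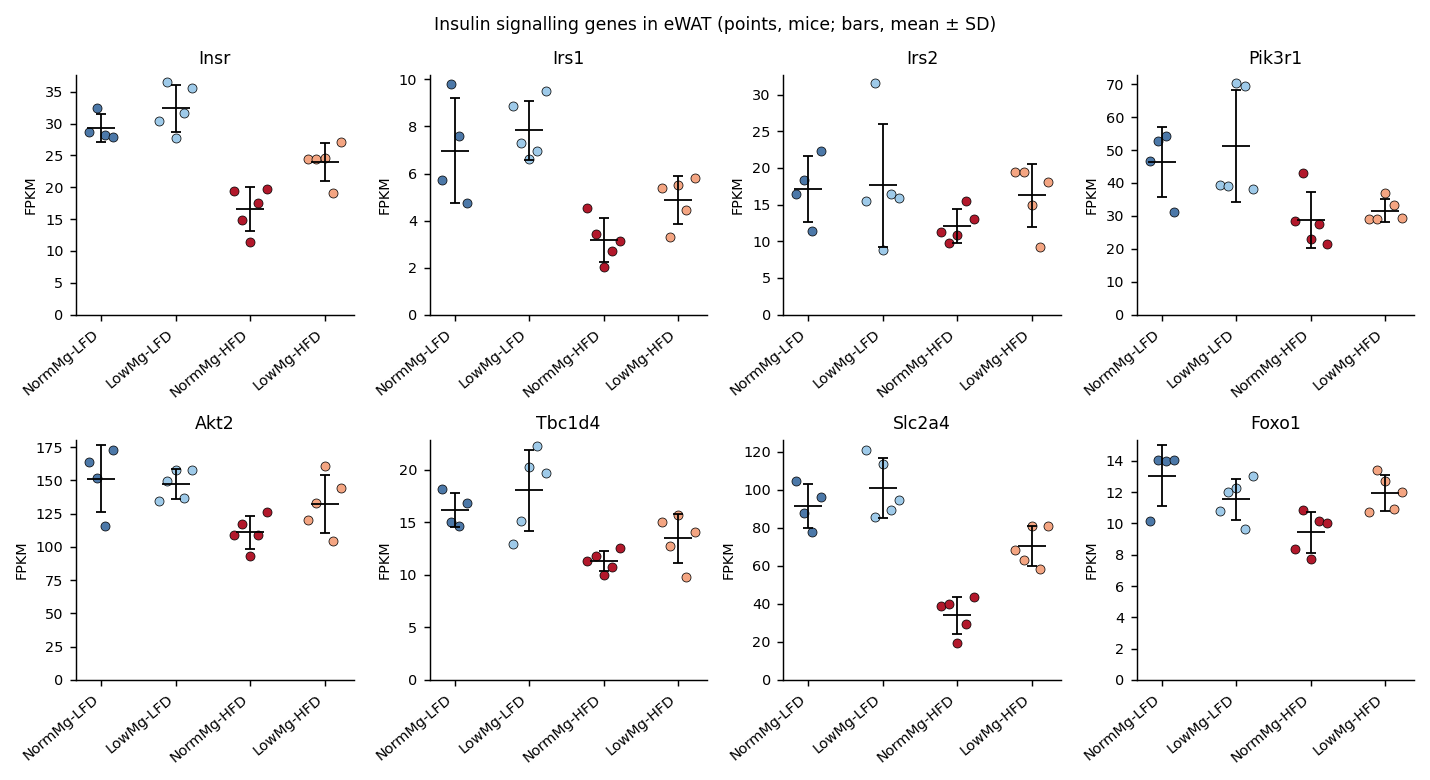
FPKM of each gene in every mouse (points) by diet group, with the group mean and SD (bars, n = 4 or 5); each axis starts at 0 and has its own scale. The NormMg-HFD mean is the lowest in all 8 panels, and for Slc2a4 the NormMg-HFD-fed mice, at 19.2 to 43.4 FPKM, lie below every other mouse.

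Insr encodes the insulin receptor and lies on chromosome 8 at 3122061–3279617 on the minus strand (GRCm38). Its FPKM in the 4 NormMg-LFD-fed mice was 28.7, 32.5, 28.2 and 27.9. The NormMg-HFD-fed mice had 19.5, 14.9, 11.4, 17.5 and 19.7. The LowMg-HFD-fed mice had 24.5, 24.5, 24.6, 19.03 and 27.2. Thus every NormMg-HFD-fed mouse was below every NormMg-LFD-fed mouse, and among the HFD-fed mice the 2 groups overlapped only through LowMg-HFD replicate 4, the lowest of its group. The group means were 29.3 ± 2.16 (SD, n = 4) in NormMg-LFD and 16.6 ± 3.46 (n = 5) in NormMg-HFD, against 32.4 ± 3.65 (n = 5) and 23.96 ± 2.98 (n = 5) in the LFD-fed and HFD-fed mice with low Mg2+. Insr fell on the HFD with normal Mg2+ by 0.81 on the log2(FPKM + 1) scale (SE 0.136, limma adjusted p = 0.000213). It was 0.52 higher in LowMg-HFD than in NormMg-HFD (SE 0.129, limma adjusted p = 0.014). The second difference missed the threshold at an adjusted p of 0.0528 when only the HFD-fed groups entered the limma fit, and was 0.60 (adjusted p = 0.00962) without LowMg-HFD replicate 4. Between LowMg-HFD and LowMg-LFD it fell by 0.42 (SE 0.129, limma adjusted p = 0.0469), and that call was lost in 14 of the 19 fits that left out 1 mouse, with the adjusted p over all 27 alternatives between 0.0176 and 0.105.

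The substrates Irs1 and Irs2 dock phosphoinositide 3-kinase to the receptor. Irs1 (chromosome 1, 82233101–82291416, minus strand) was the weakest of the 8 genes, with a mean of 5.65 FPKM over all mice, below which lay 60.5% of the genes in the table. The NormMg-LFD-fed mice had 5.72, 9.82, 7.6 and 4.76 FPKM. The NormMg-HFD-fed mice had 4.53, 3.42, 2.03, 2.72 and 3.12, and the LowMg-HFD-fed mice 5.38, 3.29, 5.49, 4.44 and 5.8. No NormMg-HFD-fed mouse reached the lowest NormMg-LFD-fed mouse, whereas the HFD-fed groups overlapped. Irs1 fell by 0.92 on the log2(FPKM + 1) scale (SE 0.197, limma adjusted p = 0.00164) on the HFD with normal Mg2+, to a mean of 3.16 ± 0.924 (SD, n = 5) from 6.98 ± 2.23 (n = 4). Without NormMg-LFD replicate 3, the highest of its group, the fall was 0.76 (limma adjusted p = 0.00989), the difference between the LFD-fed groups was 0.34 in place of 0.18, and the interaction of the diets was 0.17 in place of 0.33. Its fitted value between LowMg-HFD and NormMg-HFD was 0.51 (SE 0.185) with a limma adjusted p of 0.0884, which passed the threshold only without LowMg-HFD replicate 2 (adjusted p = 0.0397). Between LowMg-HFD and LowMg-LFD the value was -0.60 (SE 0.185) with a limma adjusted p of 0.0504, which passed in 6 of 26 alternatives. The groups, at 3.29 to 5.8 and 6.6 to 9.49 FPKM, did not overlap.

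Irs2 (chromosome 8, 10984681–11008458, minus strand) stood at 15.7 FPKM over all mice. The NormMg-LFD-fed mice had 16.4, 18.4, 11.4 and 22.2 FPKM and the LowMg-LFD-fed mice 15.4, 31.6, 8.87, 16.4 and 15.9. The NormMg-HFD-fed mice had 11.2, 9.72, 10.8, 15.5 and 13.1, and the LowMg-HFD-fed mice 19.5, 19.5, 14.9, 9.27 and 18.1. The spread within groups was wide, from the lowest to the highest LowMg-LFD-fed mouse above all, and every pair of groups overlapped. Irs2 passed the threshold in no comparison. Its limma adjusted p was 0.239 for NormMg-HFD against NormMg-LFD (-0.45, SE 0.271) and 0.396 for LowMg-HFD against NormMg-HFD (0.37, SE 0.256). The latter value was 0.55 without LowMg-HFD replicate 4, which had the lowest Irs2 of its group, with an adjusted p of 0.172.

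The sequences before the starts of both substrate genes are shown because they share a stretch of letters, although the genes' calls on the HFD differed. Each is the 250 bases before the RefSeq start on GRCm38.p6, read 5′ to 3′ on the minus strand, with the E box CACGTG, which basic helix-loop-helix factors read, and TGTTTT, letters of the insulin response sequence that forkhead factors can read, in capitals. For Irs1 the region is chr1:82291440-82291689 and for Irs2 chr8:11008930-11009179. These RefSeq starts are not the GENCODE gene starts given above, which on the minus strand are 82291416 for Irs1 and 11008458 for Irs2. They lie upstream of them, further so for Irs2, and the distances below are from the RefSeq starts.
Irs1: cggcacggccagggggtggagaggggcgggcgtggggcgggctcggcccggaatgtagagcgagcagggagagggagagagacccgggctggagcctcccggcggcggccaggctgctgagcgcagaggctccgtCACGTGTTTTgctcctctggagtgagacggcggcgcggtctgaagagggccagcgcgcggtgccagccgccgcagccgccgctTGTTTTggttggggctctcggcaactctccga
Irs2: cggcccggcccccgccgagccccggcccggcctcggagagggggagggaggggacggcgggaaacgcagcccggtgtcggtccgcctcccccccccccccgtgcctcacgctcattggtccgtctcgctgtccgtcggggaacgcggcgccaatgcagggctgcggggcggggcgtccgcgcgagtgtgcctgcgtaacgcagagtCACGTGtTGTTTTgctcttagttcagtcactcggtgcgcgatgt
In Irs1 the E box began 115 bases before the start and TGTTTT 111 bases before it, so that they share 2 bases, and TGTTTT was met again 32 bases before the start. In Irs2 they began 44 and 37 bases before the start. On both strands, CACGTG was found in 6.02% and TGTTTT in 19.8% of the 32851 promoters of this length in the RefSeq table. The pair starting within 10 bases of each other, a distance chosen after the sequences were seen, was found in 16 promoters (0.0487%). The table matched 6 of the 8 genes, all but Insr and Slc2a4, with 10 entries. Irs1 and Irs2 were the only ones among those 6 genes with CACGTG. Their windows were 72.4% and 72.8% G and C, against a median of 52.4% over all promoters. A match of letters is not a bound site.

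Pik3r1 encodes the regulatory subunits of phosphoinositide 3-kinase that bind the substrates (chromosome 13, 101680563–101768217, minus strand). Its FPKM was 46.8, 52.7, 54.4 and 31.2 in NormMg-LFD-fed mice and 39.5, 39.2, 70.4, 69.5 and 38.1 in LowMg-LFD-fed mice. On the HFD it was 28.4, 43.0, 22.9, 27.4 and 21.5 with normal Mg2+ and 29.0, 29.1, 37.0, 33.2 and 29.3 with low Mg2+. LowMg-LFD replicates 3 and 4 thus stood far above the 3 others, and NormMg-HFD replicate 2 above the rest of its group. Pik3r1 fell by 0.68 on the log2(FPKM + 1) scale on the HFD with normal Mg2+ (SE 0.221, limma adjusted p = 0.0268), and the groups overlapped. The call was lost without NormMg-LFD replicate 3, the library with pancreatic messages, at an adjusted p of 0.0829, and without NormMg-LFD replicate 2 or 4 or NormMg-HFD replicate 3 or 5. With low Mg2+ the fat difference was of like size, -0.63 (SE 0.208, limma adjusted p = 0.0639), and the groups did not overlap, the LowMg-HFD-fed mice reaching 37.0 and the LowMg-LFD-fed mice starting at 38.1 FPKM. Without LowMg-LFD replicate 4 it was -0.51 (limma adjusted p = 0.143). Between LowMg-HFD and NormMg-HFD the value was 0.17 (95% interval -0.27 to 0.61), the smallest among the 8 genes.

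Akt2, the Akt isoform tied to glucose uptake, was the most highly expressed of the 8 genes, at 134.7 FPKM over all mice, a level above that of 97.9% of the genes in the table (chromosome 7, 27591552–27640826, plus strand). The NormMg-LFD-fed mice had 164, 151, 116 and 173 FPKM, and the NormMg-HFD-fed mice 109, 118, 93.0, 109 and 126.3. In LowMg-HFD-fed mice it was 120.2, 133, 161, 104 and 144. The NormMg-HFD-fed mice overlapped the NormMg-LFD-fed mice through NormMg-LFD replicate 4, and the LowMg-HFD-fed mice through LowMg-HFD replicates 1 and 4. Akt2 fell by 0.43 on the log2(FPKM + 1) scale on the HFD with normal Mg2+ (SE 0.128, limma adjusted p = 0.0167), from a mean of 151 ± 25.2 (SD, n = 4) to 111 ± 12.4 (n = 5) FPKM. Without NormMg-LFD replicate 2 or 5 the call was lost, at an adjusted p of up to 0.0651. Between LowMg-HFD and NormMg-HFD it was 0.25 (SE 0.121, limma adjusted p = 0.216), or 0.33 with an adjusted p of 0.0848 without LowMg-HFD replicate 4.

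Tbc1d4 encodes AS160, the Rab GTPase-activating protein that holds GLUT4 vesicles back until Akt phosphorylates it (chromosome 14, 101442360–101609191, minus strand). The NormMg-LFD-fed mice had 18.2, 15.04, 14.6 and 16.8 FPKM, and the NormMg-HFD-fed mice 11.3, 11.8, 10.01, 10.8 and 12.5, with no overlap. The LowMg-LFD-fed mice had 12.9, 15.1, 20.2, 22.2 and 19.7, and the LowMg-HFD-fed mice 15.1, 12.7, 15.7, 9.81 and 14.1, where LowMg-HFD replicate 4 was the lowest of all 19 mice. It fell by 0.48 on the log2(FPKM + 1) scale on the HFD with normal Mg2+ (SE 0.146, limma adjusted p = 0.0199), a call lost without NormMg-LFD replicate 2 or NormMg-HFD replicate 3, the adjusted p reaching 0.0642. Its limma adjusted p was 0.341 between LowMg-HFD and NormMg-HFD (0.22, SE 0.138) and 0.0905 between LowMg-HFD and LowMg-LFD (-0.39, SE 0.138).

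Slc2a4 encodes GLUT4, the transporter that insulin brings to the adipocyte surface (chromosome 11, 69942539–69948188, minus strand). It showed the widest movement of the 8 genes. The NormMg-LFD-fed mice had 105, 87.5, 77.9 and 96.1 FPKM and the LowMg-LFD-fed mice 121, 85.4, 114, 89.2 and 94.7. The NormMg-HFD-fed mice had 38.6, 39.8, 19.2, 29.3 and 43.4, and the LowMg-HFD-fed mice 68.2, 62.9, 81.0, 58.2 and 81.2. Each LowMg-HFD-fed mouse was above each NormMg-HFD-fed mouse, and only Slc2a4 of the 8 genes separated these groups, as did 2.61% of all genes tested with the LowMg-HFD group higher. The means with normal Mg2+ were 91.55 ± 11.5 (SD, n = 4) on the LFD and 34.05 ± 9.79 (n = 5) on the HFD, and those with low Mg2+ were 100.8 ± 15.7 (n = 5) and 70.3 ± 10.5 (n = 5). Slc2a4 fell by 1.45 on the log2(FPKM + 1) scale on the HFD with normal Mg2+ (SE 0.187, limma adjusted p = 1.51e-05), to 0.372 of the NormMg-LFD mean. It was 1.07 higher in LowMg-HFD than in NormMg-HFD (SE 0.176, limma adjusted p = 0.003), a ratio of the means of 2.06. That call held in all 27 alternatives, with the adjusted p between 0.00177 and 0.0219, and without LowMg-HFD replicate 4 the difference was 1.13 (adjusted p = 0.00596). Between LowMg-HFD and LowMg-LFD the value was -0.51 (SE 0.176, limma adjusted p = 0.0764), and although the groups did not overlap it passed the threshold only without NormMg-HFD replicate 3, the mouse with the lowest Slc2a4 (adjusted p = 0.0201).

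Foxo1, the forkhead factor that Akt keeps in the cytoplasm (chromosome 3, 52268336–52353221, plus strand), was at 10.2, 14.0, 14.0 and 14.0 FPKM in the NormMg-LFD-fed mice. The NormMg-HFD-fed mice had 8.35, 10.85, 7.75, 10.2 and 10.03, and the LowMg-HFD-fed mice 10.8, 13.45, 12.7, 10.9 and 12.0. NormMg-LFD replicate 2 lay well below its group and alone overlapped the NormMg-HFD-fed mice. Foxo1 fell by 0.43 on the log2(FPKM + 1) scale on the HFD with normal Mg2+ (SE 0.121, limma adjusted p = 0.0121), and the call held in all 27 alternatives, up to an adjusted p of 0.0431. It was 0.32 higher in LowMg-HFD than in NormMg-HFD (SE 0.114), which did not pass at a limma adjusted p of 0.0788 and passed in none of the alternatives. With low Mg2+ its fat difference was 0.052 (95% interval -0.19 to 0.29), the only fitted value of the 8 above 0, and it was below 0 under median centring and quantile normalization.

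Counting groups that did not overlap, the NormMg-HFD-fed mice were wholly below the NormMg-LFD-fed mice for 4 of the 8 genes, Insr, Irs1, Tbc1d4 and Slc2a4, against 9.68% of all genes tested. The LowMg-HFD-fed mice were wholly below the LowMg-LFD-fed mice for 4 genes, Insr, Irs1, Pik3r1 and Slc2a4, against 1.49% of all genes. Between these low-Mg2+ groups the median difference of all genes was 0.11, and it became -0.056 after median centring. With that scaling 4 of the 8 genes, Insr, Irs1, Pik3r1 and Tbc1d4, were called lower, against 3.93% of all genes called lower, and so they were after quantile normalization, against 3.74%. Without LowMg-HFD replicate 4, and likewise without LowMg-LFD replicate 4, none of the 8 was called by limma between these groups, where 2.19% and 1.71% of all genes were called lower. The value of Insr was -0.34 in the first of these fits (limma adjusted p = 0.0974) and -0.43 in the second (limma adjusted p = 0.0671), beside -0.42 with all mice. In both fits 5 of the 8 genes had an unadjusted p under 0.05, as had 24.1% and 23.1% of all genes tested in these fits. Between LowMg-HFD and NormMg-HFD, Slc2a4 and Insr both passed without that library, against 3.49% of all genes called higher.

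The question of whether Mg2+ mattered without the HFD was addressed by LowMg-LFD against NormMg-LFD. None of the 8 genes passed, and neither did any of the 14267 genes (0% called by limma), of which 830 had an unadjusted p under 0.05, with none of the 8 among them. The group means differed by between -11.7% for Foxo1 and 12.4% for Irs1. For Slc2a4 the difference was 0.13 with a 95% interval of -0.26 to 0.52, and for Insr 0.14 with an interval of -0.15 to 0.42, on the log2(FPKM + 1) scale. All groups overlapped for all 8 genes. Irs2 had a slightly higher mean FPKM with low Mg2+ (17.6 against 17.1) and a fitted log2 value just below 0 (-0.027). LowMg-LFD replicate 2 held the highest value of all mice, at 31.6 FPKM.

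Whether the Mg2+ difference depended on fat was tested with the interaction of the diets. No gene was called (0% of 14267 by limma), 2374 genes had an unadjusted p under 0.05, and 2 of the 8 genes were among these. Slc2a4 had an interaction of 0.93 (SE 0.257, limma adjusted p = 0.085), the Mg2+ difference being larger on the HFD, and Foxo1 one of 0.48 (SE 0.166, limma adjusted p = 0.148). Across 26 alternatives the adjusted p of Slc2a4 ran from 0.0528 to 0.17 and that of Foxo1 from 0.106 to 0.319. A Mg2+ difference on the HFD that passed the threshold, beside one on the LFD that did not, was therefore not shown to differ between the diets for any of the 8 genes.

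**Figure D2:**
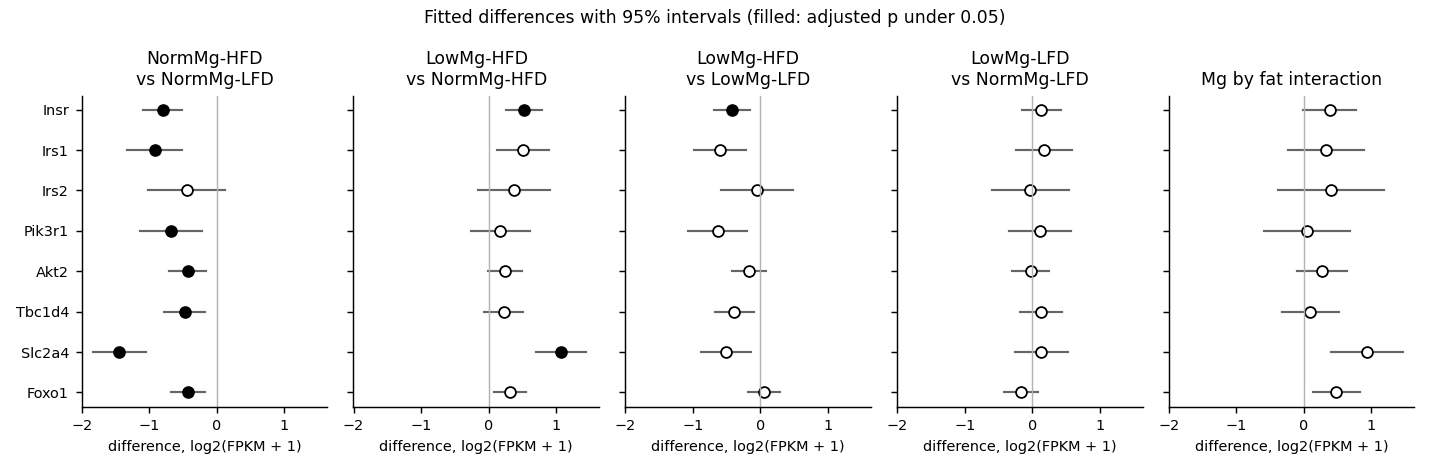
Fitted difference of each gene in each comparison on the log2(FPKM + 1) scale, with its 95% interval; filled points have an adjusted p under 0.05. With normal Mg2+, 7 filled points lie below 0, for LowMg-HFD against NormMg-HFD the points of Slc2a4 (1.07) and Insr (0.52) are filled above 0, and for LowMg-LFD against NormMg-LFD every interval covers 0.

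Cell type markers also differed between the groups. The 9 macrophage markers all rose in NormMg-HFD against NormMg-LFD and all 9 fell between NormMg-HFD and LowMg-HFD. Their mean log2(FPKM + 1) ran from 4.33 to 4.68 in NormMg-LFD, 3.92 to 4.95 in LowMg-LFD, 6.47 to 7.28 in NormMg-HFD and 4.84 to 6.37 in LowMg-HFD. Of 8 adipocyte markers, 4 fell and 1 rose in NormMg-HFD against NormMg-LFD, where 9.67% of all genes were called lower and 17.2% higher. In LowMg-HFD against NormMg-HFD 3 rose, beside 2.99% of all genes. The adipocyte mean was 10.13 ± 0.195 (SD, n = 4) in NormMg-LFD and 10.19 ± 0.0729 (n = 5) in LowMg-LFD. It was 9.97 ± 0.176 (n = 5) in NormMg-HFD and 10.3 ± 0.114 (n = 5) in LowMg-HFD. It was thus highest in LowMg-HFD, where 7 of the 8 genes had a fitted value below 0 against LowMg-LFD. The 5 stromal markers averaged 6.65 in NormMg-HFD and 6.21 in LowMg-HFD, and 1 of them fell between these groups, while 2 rose in NormMg-HFD against NormMg-LFD. In LowMg-HFD against LowMg-LFD, 6 macrophage markers, 1 stromal and 1 adipocyte marker rose. NormMg-HFD replicate 3, which had the lowest Insr, Irs1, Akt2, Slc2a4 and Foxo1 of the 19 mice, also had the highest macrophage mean (7.28) and the lowest adipocyte mean (9.74). The part of the cell type makeup in the differences of the 8 genes was not tested. Of the 5 endothelial markers, whose means ran from 4.80 to 5.31 over the libraries, Kdr was lower in NormMg-HFD against NormMg-LFD (-0.41, limma adjusted p = 0.0477) and higher in LowMg-HFD against NormMg-HFD (0.54, limma adjusted p = 0.0164), and Cdh5 rose in LowMg-HFD against LowMg-LFD (0.29, limma adjusted p = 0.0369). None of the 6 lymphocyte markers tested was called in these comparisons. Skeletal muscle also uses GLUT4, and 2 of its 7 markers were tested, Myl1 at 25.9 to 64.8 FPKM and Acta1 at 2.93 to 24.9, while the 5 others reached at most 1.13 FPKM. Myl1 fell in NormMg-HFD against NormMg-LFD (-0.74, limma adjusted p = 0.00164) and was higher in LowMg-HFD against NormMg-HFD (0.49, limma adjusted p = 0.0427). Acta1 was called in neither, with values of 0.51 (limma adjusted p = 0.303) and 0.71 (limma adjusted p = 0.188). The 7 markers averaged 1.27 to 1.40 in NormMg-HFD and 1.49 to 1.72 in LowMg-HFD, with no overlap. The part of the endothelial and muscle messages in the differences of the 8 genes was not tested.

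**Figure D3:**
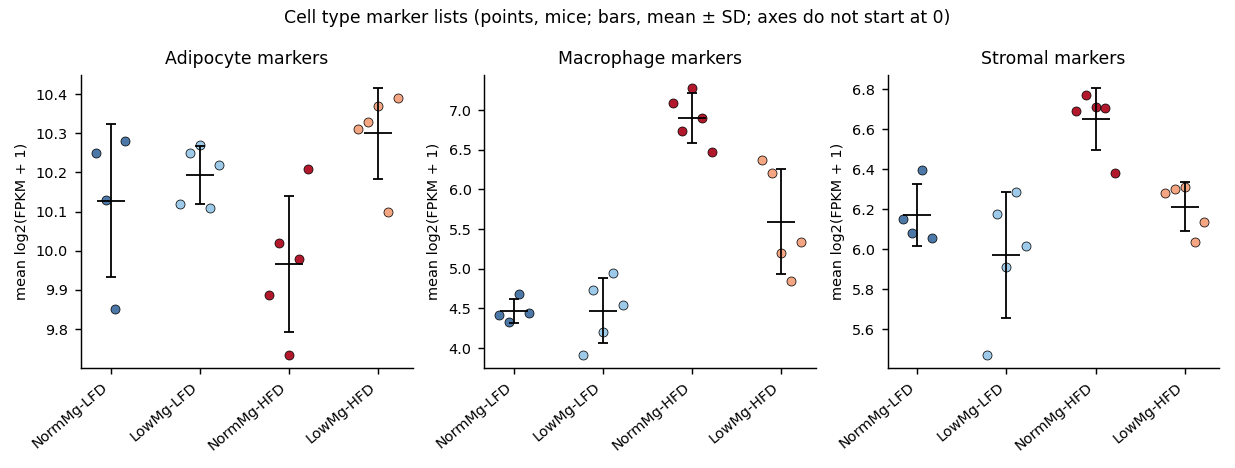
Mean log2(FPKM + 1) of the adipocyte (8 genes), macrophage (9 genes) and stromal (5 genes) markers in every mouse, with group mean and SD; the axes do not start at 0. The macrophage mean is 6.47 to 7.28 in NormMg-HFD-fed mice, above every mouse of the other 3 groups.

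Several of the 8 genes have a close relative with a like role, and FPKM allows their levels to be added. Slc2a4 made up 91.9% ± 4.69 (SD, n = 4) of the sum with Slc2a1, the transporter GLUT1 that most cells carry, in NormMg-LFD. The share was 94.1% ± 3.47 (n = 5) in LowMg-LFD, 78.8% ± 10.4 (n = 5) in NormMg-HFD and 90.4% ± 1.71 (n = 5) in LowMg-HFD. Slc2a1 itself was called in no comparison, with means between 6.07 and 8.44 FPKM. Akt2 took 74.9% ± 8.28 (n = 4) of the sum with Akt1 in NormMg-LFD and 60.9% ± 5.69 (n = 5) in NormMg-HFD, where Akt1 was at 49.7 and 71.1 FPKM, and 70.1% ± 3.82 (n = 5) in LowMg-HFD. Foxo1 held 60.9%, 63.0%, 46.65% and 58.9% of its sum with Foxo3 in the 4 groups in the same order as Slc2a4, and Tbc1d4 held 68.3%, 73.6%, 49.1% and 59.5% of its sum with Tbc1d1. LowMg-HFD replicate 4 had the lowest Tbc1d4 share of its group, 39.9%, and the group's mean was 64.4% ± 3.44 (SD, n = 4) without it, 15.3 percentage points above NormMg-HFD (exact p = 0.0159, the smallest that 4 against 5 mice allow, before adjustment), beside 10.4 points (exact p = 0.0873) with it. Irs1 remained the minor substrate in every group, between 20.9% and 33.0% of the sum with Irs2. Pik3r1 was the major one of Pik3r1 and Pik3r2, between 75.9% and 83.9%. Over 24 comparisons of these 6 shares by exact two-sided permutation tests, none passed after Benjamini-Hochberg adjustment. With this number of mice no share could pass alone, since the exact p has a floor of 0.00794 for 5 against 5 mice and 0.0159 for 4 against 5. The lack of a passing share therefore does not show that the shares were alike. The smallest adjusted p was 0.0635, reached among others by Foxo1 in LowMg-HFD against NormMg-HFD (12.2 percentage points higher, exact p = 0.00794, the smallest that 5 against 5 mice allow).

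**Figure D4:**
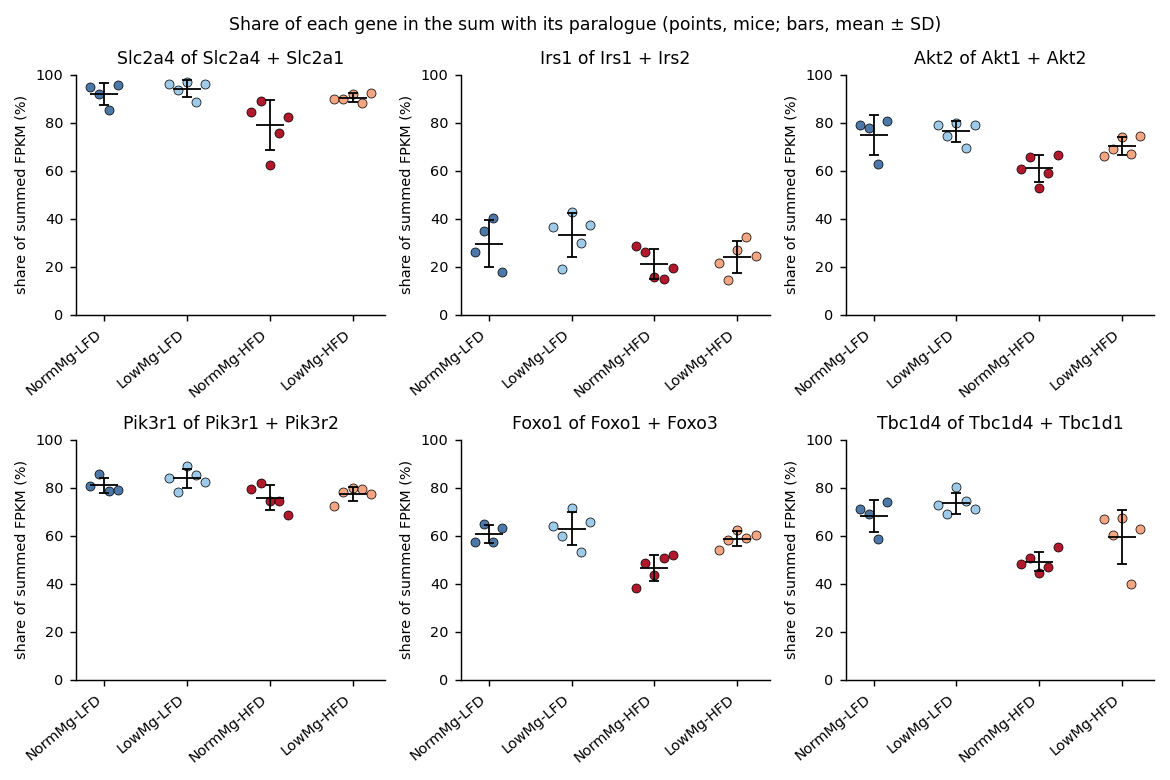
Share of each gene in the summed FPKM of the gene and its relative, in every mouse, with group mean and SD; all axes run from 0 to 100%. NormMg-HFD has the lowest mean in all 6 panels, and NormMg-HFD replicate 3 lies at 62.3% for Slc2a4.

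The rest of the pathway was read from a list of 82 other genes in 9 roles, of which 78 passed the filter. In NormMg-HFD against NormMg-LFD, 16 rose (20.5% of 78, against 17.2% of all genes called higher) and 13 fell (16.7%, against 9.67%). Their median difference was -0.097, beside 0.0059 over all genes. In LowMg-HFD against NormMg-HFD, 8 rose (10.3%, against 2.99%) and 10 fell (12.8%, against 7.77%), with a median of 0.028. In LowMg-HFD against LowMg-LFD 3 rose (3.85%, against 7.19%) and 3 fell (3.85%, against 1.99%). The list thus had calls in both directions, whereas the 7 calls among the 8 genes on the HFD with normal Mg2+ were all lower. Of all genes called in NormMg-HFD against NormMg-LFD, 64.0% were higher, or 53.6% after median centring. In LowMg-HFD against LowMg-LFD that share was 78.3%, or 39.0% after median centring, and the 3 higher and 3 lower genes of the list became 1 and 5. For LowMg-LFD against NormMg-LFD and for the interaction no gene of the list was called by limma, with 7 and 17 at an unadjusted p under 0.05. Without LowMg-HFD replicate 4 the list had 10 genes higher and 10 lower in LowMg-HFD against NormMg-HFD, and 1 gene passed the interaction. The 18 calls for LowMg-HFD against NormMg-HFD became 7 (4 higher, 3 lower) without NormMg-HFD replicate 3, 8 (4 and 4) without LowMg-HFD replicate 3, 9 (5 and 4) without NormMg-HFD replicate 1, and 11 (5 and 6) without NormMg-HFD replicate 4 or LowMg-HFD replicate 5. They were also 11 (5 and 6) when only the HFD-fed groups were fitted and 12 (5 and 7) after median centring. For the interaction 3 genes passed without LowMg-HFD replicate 1, 2 without LowMg-HFD replicate 2 or NormMg-HFD replicate 5, and 2 with a filter at 8 FPKM. The 6 calls for LowMg-HFD against LowMg-LFD became 3 without LowMg-LFD replicate 1, 2, 3 or 5, and 2 without LowMg-HFD replicate 1 or 2. Without NormMg-LFD replicate 3 it had 11 higher and 11 lower in NormMg-HFD against NormMg-LFD. Of the called differences of the genes taken by the naming rule, 20 of 27 for NormMg-HFD against NormMg-LFD held in all 19 fits that left out 1 mouse, as did 5 of 17 for LowMg-HFD against NormMg-HFD (Pik3r3, Gys1, Pde3b, Myo1c and Rala) and 2 of 6 for LowMg-HFD against LowMg-LFD (Gys1 and Slc2a10). In these fits 1 called difference, that of Socs3, moved by over 1.5 times.

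**Figure D5:**
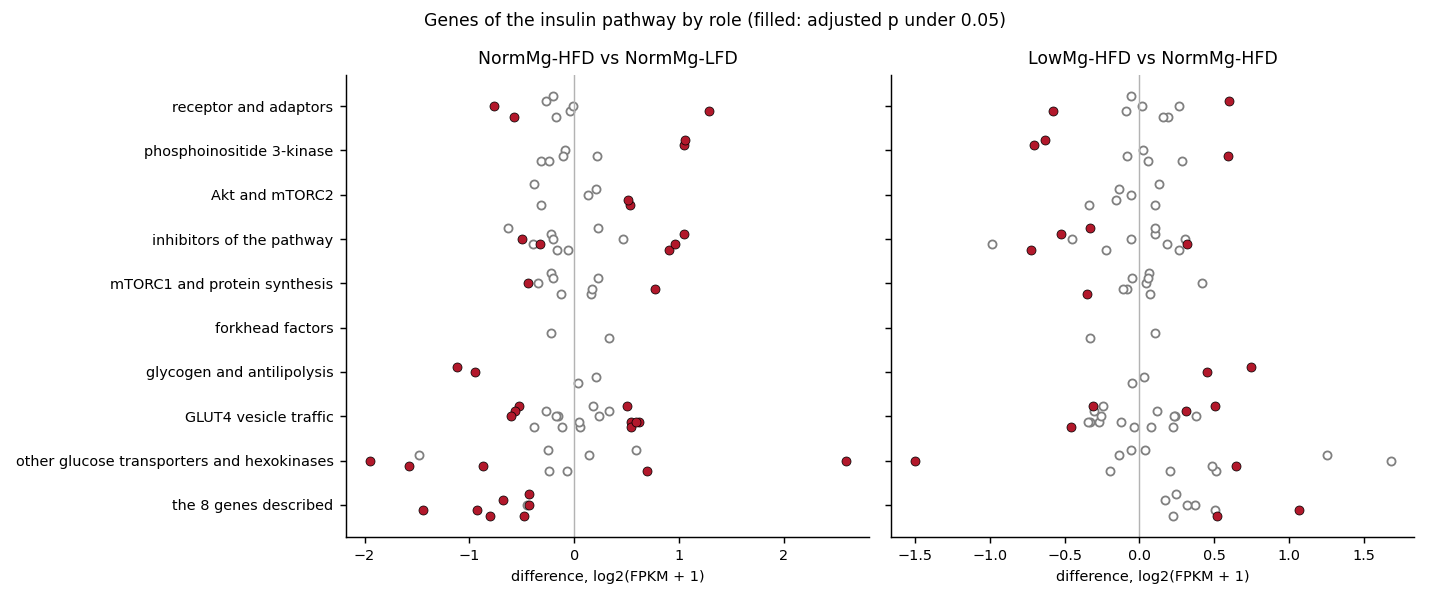
Fitted difference on the log2(FPKM + 1) scale of the 78 pathway genes tested, by role, and of the 8 genes described, for NormMg-HFD against NormMg-LFD (left) and LowMg-HFD against NormMg-HFD (right); filled points have an adjusted p under 0.05. On the left the 7 filled points of the 8 genes are all below 0, while the list has 16 filled points above and 13 below 0.

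Among receptors and adaptors, Irs3, the rodent substrate of adipocytes, was higher in LowMg-HFD (28.8 ± 6.08 FPKM, SD, n = 5) than in NormMg-HFD (18.6 ± 4.43, n = 5), by 0.60 on the log2(FPKM + 1) scale (limma adjusted p = 0.04). Igf1r, the receptor of insulin-like growth factor 1, fell from 5.79 to 2.82 FPKM on the HFD with normal Mg2+ (-0.76, limma adjusted p = 0.0145), and Sh2b2, an adaptor of the insulin receptor, from 22.5 to 14.9 (-0.58, limma adjusted p = 0.0108). Grb2, the adaptor to the Ras pathway, moved the other way, from 33.5 to 81.5 FPKM (1.29, limma adjusted p = 8.42e-06), and was 54.8 in LowMg-HFD (-0.58 against NormMg-HFD, limma adjusted p = 0.0164).

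Of the catalytic subunits of phosphoinositide 3-kinase, Pik3ca, through which insulin mainly acts, had means between 16.9 and 20.5 FPKM and Pik3cb between 12.4 and 15.99, and neither passed in any comparison. Pik3cd and Pik3cg, subunits mostly found in leukocytes, rose from 5.49 to 12.5 and from 2.38 to 6.05 FPKM on the HFD with normal Mg2+ (1.05 and 1.06, limma adjusted p = 0.000365 and 0.000327). On the HFD with low Mg2+ they stood at 7.32 and 3.71 FPKM, differences from NormMg-HFD of -0.70 and -0.63 on the log2(FPKM + 1) scale (limma adjusted p = 0.0154 and 0.0268). They moved with the macrophage markers, whose part was not tested. The regulatory subunit gene Pik3r3 was higher in LowMg-HFD (6.95 FPKM) than in NormMg-HFD (4.28), by 0.59 (limma adjusted p = 0.013). Akt1 rose on the HFD with normal Mg2+, by 0.53 (limma adjusted p = 0.0149), where Akt2 fell.

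Of 13 inhibitors of the pathway, 3 rose (23.1%, against 17.2% of all genes) and 2 fell (15.4%, against 9.67%) on the HFD with normal Mg2+. The phosphatase gene Ptpn1, whose product PTP1B dephosphorylates the receptor, went from 13.3 ± 2.33 (SD, n = 4) to 28.7 ± 5.65 (n = 5) FPKM (1.04, limma adjusted p = 0.000187) and was 19.45 ± 3.05 (n = 5) in LowMg-HFD (-0.53 against NormMg-HFD, limma adjusted p = 0.0458). The latter call was lost in 12 of the 19 fits that left out 1 mouse, up to a limma adjusted p of 0.13. Enpp1, a membrane protein that hampers the receptor, rose by 0.90, from 1.34 to 3.31 FPKM, and was at 1.65 FPKM in LowMg-HFD (-0.73 against NormMg-HFD, limma adjusted p = 0.023, a call lost in 4 of these fits). Socs3, which targets the substrates, was at 7.69, 10.2, 28.0, 10.2 and 3.95 FPKM in the NormMg-HFD-fed mice and at 3.76 to 5.45 in the NormMg-LFD-fed mice. Its rise of 0.96 (limma adjusted p = 0.0445) leaned on NormMg-HFD replicate 3, without which it was 0.61 (adjusted p = 0.107), and the call was lost in 12 of the 19 fits that left out 1 mouse. Grb10, an adaptor that restrains the receptor, fell by 0.33 on the HFD with normal Mg2+ and was 0.32 higher in LowMg-HFD than in NormMg-HFD, the latter call being lost in 2 of these fits. Inppl1, a lipid phosphatase, was at 33.2 FPKM in NormMg-HFD and 26.1 in LowMg-HFD (-0.33, limma adjusted p = 0.0341), a call lost in 8 of these fits.

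Downstream of Akt, Gys1 and Pde3b fell on the HFD with normal Mg2+ and were higher in LowMg-HFD, the directions in which Slc2a4 was called. Gys1, the glycogen synthase of fat and muscle, was at 46.4 ± 3.34 (SD, n = 4), 51.6 ± 3.2 (n = 5), 23.8 ± 3.44 (n = 5) and 32.8 ± 4.18 (n = 5) FPKM in the LFD-fed mice with normal and low Mg2+ and the HFD-fed mice with normal and low Mg2+. It fell on the HFD with normal (-0.94) and with low Mg2+ (-0.64), and it was 0.45 higher in LowMg-HFD than in NormMg-HFD (limma adjusted p = 0.00811). Pde3b, the phosphodiesterase through which insulin restrains lipolysis, was at 82.6, 94.4, 37.6 and 64.1 FPKM in the same order. Its differences were -1.12 with normal and -0.54 with low Mg2+ for fat, and 0.75 for LowMg-HFD against NormMg-HFD (limma adjusted p = 0.00727). Of the 9 genes of mTORC1 and protein synthesis, Deptor rose (0.77) and Eif4ebp1 fell (-0.45) on the HFD with normal Mg2+, and Akt1s1 fell between NormMg-HFD and LowMg-HFD (-0.35).

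Among 18 genes of GLUT4 vesicle traffic, Sort1 (sortilin, which helps to form the vesicles), Vamp2 (a vesicle fusion protein) and Myo1c (a motor) fell on the HFD with normal Mg2+, by 0.57, 0.61 and 0.53. Sort1 and Myo1c were higher in LowMg-HFD than in NormMg-HFD, by 0.31 and 0.51 (limma adjusted p = 0.0363 and 0.00596), with Myo1c at 125.6 against 87.7 FPKM. Rising on the HFD with normal Mg2+ were Snap23, Rala and Cbl, by 0.54, 0.51 and 0.61, and also Stxbp3 (0.54) and Tbc1d1 (0.59), which the naming rule left out and which are named after their values were seen. Rala and Stxbp3 fell between NormMg-HFD and LowMg-HFD, by 0.31 and 0.46.

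Of 11 other glucose transporters and hexokinases tested, Hk2, the hexokinase of insulin-sensitive tissues, fell from 25.1 to 13.3 FPKM on the HFD with normal Mg2+ (-0.87, limma adjusted p = 0.000683) and was at 19.1 in LowMg-HFD (0.49, limma adjusted p = 0.0536). Hk3, a hexokinase of myeloid cells, went from 3.59 to 26.6 FPKM (2.59, limma adjusted p = 9e-05) and to 11.1 in LowMg-HFD (-1.50, limma adjusted p = 0.0154). Slc2a13, a myo-inositol transporter, fell from 4.72 to 0.9 FPKM and was higher in LowMg-HFD at 2.02 (0.64, limma adjusted p = 0.0359). Slc2a3 fell (-1.95, limma adjusted p = 0.0375), from NormMg-LFD to NormMg-HFD. Its 16.6 ± 28.6 FPKM (SD, n = 5) in LowMg-HFD included 67.8 in LowMg-HFD replicate 4, and the group was at 3.84 ± 1.53 (n = 4) without that library. Slc2a9 rose by 0.69 with normal and Slc2a10 by 0.95 with low Mg2+ on the HFD.

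Likeness of pattern was described by Pearson's r of log2(FPKM + 1) over the 19 mice, without a test, since the mice share the diet groups and the libraries. For Slc2a4 the most alike of the genes tested were Car3 (r = 0.974, or 0.856 after removal of the group means), Thrsp (0.96 and 0.836) and Ndufv3 (0.956 and 0.696). Car3 is a carbonic anhydrase abundant in adipocytes and Thrsp a regulator of fatty acid synthesis. For Insr they were Acss3 (0.962 and 0.804), Ppp2r1b and Lgals12, and for Irs1 they were Gm9747 (0.971 and 0.924), Cluh and Sik2. Akt2 was most like Utrn (0.929 and 0.907), Cmklr1 and Hspb8, and Tbc1d4 most like Fxyd1 (0.881 and 0.707), Gpam and Rbms2. Pik3r1 was nearest to Prkaa2 (0.851 and 0.702), Vps13c and Siglech, Irs2 to Etv3 (0.893 and 0.907), Cd300lg and Dtx3l, and Foxo1 to Rgs7bp (0.838 and 0.702), Ntrk2 and Mtss1l. Among the 8 genes themselves, over all mice, Insr and Slc2a4 were closest (0.905, or 0.509 within groups), and Irs2 and Pik3r1 were the only pair with r below 0 (-0.102, or -0.567 within groups). Within groups Akt2 and Slc2a4 were closest (0.647), and further pairs were below 0, such as Insr and Pik3r1 (-0.201). Over the 18 mice without LowMg-HFD replicate 4, Insr and Slc2a4 were at 0.912 and 0.461, and Irs2 and Pik3r1 at -0.138 and -0.607. The gene named first above for each of the 8 had r between 0.838 and 0.974 over these 18 mice.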

How the data were processed

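eWAT RNA of 19 mice was sequenced with single-end reads. The authors mapped reads to the GRCm38/mm10 transcriptome with HISAT and Bowtie2 and estimated expression with RSEM 1.2.31. The deposited table holds FPKM per gene and mouse. A deposited summary gives read counts and the percent of reads mapped per library, per the file headers. In the table, 12 lines broken off from another row were left out, 1 gene was left out for a cell that was not a number, and 26 symbols turned into dates were restored. The LowMg-LFD columns carried a shorter name and were matched by title.

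FPKM values were used on the log2(FPKM + 1) scale. Genes with a mean FPKM above 1 (14267 of 24237) entered limma (version 3.58.1, under R 4.3.3), whose variance prior followed the mean level, with 1 estimate of the spread for all 4 groups. Benjamini-Hochberg adjusted p-values cover every gene tested, separately for each of 5 contrasts, with a threshold of 0.05. The fit was tested on simulated data. FPKM gives no count per gene, so that no counting interval could be given, and precision rests on the number of mice. The numbers of the mice mark no shared cage or day in the labels. Exact permutation tests compared shares (Python 3.11.15). Where 2 rows had the same symbol, the row whose gene ID has that symbol in the reference was used. Gene positions are from GENCODE vM21 (GRCm38) and promoters from RefSeq (GRCm38.p6).

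The 8 genes, the pathway and marker lists and the tests were chosen with earlier results of these data known. Genes of the pathway list were named where they passed in 1 or more contrasts, up to 6 per role by smallest adjusted p, with Slc2a1, Pik3ca and Akt1 in any case (some genes of the list are not reported here), and the 3 genes most alike were named for each of the 8. Alternatives were a pseudocount of 0.1, a filter after that of the study (a group mean above 8 FPKM and 4 mice above 8, which kept 8336 genes here, not the number in the methods, where the cut-off stands without a unit and was read here as FPKM), no filter, median centring, quantile normalization, no trend, a replicate block, only the groups compared, and leaving out each mouse. These alternatives were run on the pathway list, shares and correlations without LowMg-HFD replicate 4 were computed, and named genes of that list were refitted without each mouse, after seeing the data.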

Additional observations from a re-analysis of the deposited data

Results flagged for a closer look

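Foxo1 in NormMg-LFD replicate 2 was at 10.2 FPKM, while the 3 other NormMg-LFD-fed mice lay between 14.0 and 14.04. The gap was 0.991 of the range of the group on the log2(FPKM + 1) scale, past the 95% critical value of Dixon's test for 4 samples. It was the only 1 of 32 sets of a gene and a group so singled out, and about 1 in 20 such sets would be by chance. The fall of Foxo1 on the HFD with normal Mg2+ was 0.54 on the log2 scale without that mouse.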

How the results depend on the processing

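Of 1067 values of the 8 genes under 27 alternatives, 989 kept their direction and their side of the threshold, 28 lost and 18 gained a call, and 32 changed sign, none of them a called difference. For LowMg-HFD against NormMg-HFD, 2 of the 8 genes were called (beside 2.99% of all genes called higher), 1 (Slc2a4) when only the groups compared were fitted, and 2 to 3 when each mouse was left out. For NormMg-HFD against NormMg-LFD, 7 were called (beside 9.67% of all genes called lower), and 4 (without NormMg-LFD replicate 2) to 7 when mice were left out. For LowMg-HFD against LowMg-LFD, 1 was called, beside 1.99% of all genes called lower. With the filter at 8 FPKM, which Irs1 did not pass, it was 2 of 7. With median centring and with quantile normalization it was 4, beside 3.93% and 3.74% of all genes. It was 0 with no filter, without the intensity trend and with only the groups compared. In each of these 5 genes had an unadjusted p under 0.05 in limma, as in the main fit, where 22.7% of all genes tested had one. When mice were left out it was 0 to 3 (without NormMg-HFD replicate 3). Over all genes, leaving out mice gave 850 (without NormMg-HFD replicate 3) to 1690 calls beside 1536 for LowMg-HFD against NormMg-HFD, 704 (without LowMg-HFD replicate 2) to 1478 beside 1310 for LowMg-HFD against LowMg-LFD, and 0 to 331 (without LowMg-HFD replicate 2) beside 0 for the interaction. With only the groups compared, 444 genes were called for LowMg-HFD against LowMg-LFD. With no filter, 1 gene was called for LowMg-LFD against NormMg-LFD and 2 for the interaction, which had 104 calls with the filter at 8 FPKM and 39 with quantile normalization. The pathway list had 18 calls for LowMg-HFD against NormMg-HFD, 11 with only the groups compared and 7 to 22 when mice were left out, 29 for NormMg-HFD against NormMg-LFD and 22 to 34 when mice were left out, and 6 for LowMg-HFD against LowMg-LFD, 2 with no filter, 1 with only the groups compared and 2 to 6 when mice were left out. It had 0 for the interaction, 2 with the filter at 8 FPKM and 0 to 3 when mice were left out. The causes of these changes were not tested.

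The values that changed sign were all small. Under median centring and quantile normalization in turn, LowMg-LFD against NormMg-LFD became 0.076 and 0.079 for Irs2 and 0.081 and 0.014 for Akt2, Foxo1 in LowMg-HFD against LowMg-LFD became -0.12 and -0.11, and the interaction of Tbc1d4 became -0.016 and -0.0023. The interaction of Pik3r1 was -0.059 under median centring. Leaving out mice moved Irs2 from -0.26 to 0.18 for LowMg-LFD against NormMg-LFD and from -0.25 to 0.18 for LowMg-HFD against LowMg-LFD, Pik3r1 from -0.055 to 0.21 for LowMg-LFD against NormMg-LFD and from -0.040 to 0.22 for the interaction, Akt2 from -0.14 to 0.048 for LowMg-LFD against NormMg-LFD, Foxo1 from -0.0056 to 0.094 for LowMg-HFD against LowMg-LFD and Tbc1d4 from -0.012 to 0.20 for the interaction.

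With a replicate block, 2 genes were called for LowMg-HFD against NormMg-HFD, 7 for NormMg-HFD against NormMg-LFD and 1 for LowMg-HFD against LowMg-LFD, there Pik3r1 in place of Insr, and Akt2 in LowMg-LFD against NormMg-LFD was 0.00037. Over 27 same-numbered pairs the correlation of deviations ran from -0.221 to 0.45, with a median of -0.009, beside -0.0014 over other pairs between groups. Of 19 mice, 6 correlated best with a mouse of their own number. Whether the numbers pair the mice was not tested. Sequencing depth was nearly equal, and FPKM gives no counting error for weakly expressed genes such as Irs1.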
